A study of Mus musculus with 18 samples.

Results

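The enzymes of methionine salvage and of the methionine cycle were followed through 18 RNA-seq samples of a mouse macrophage line. The members were picked by gene symbol as the enzymes of the pathway in which the compound MTOB is an intermediate, together with enzymes of the methionine cycle. They are Mtap, Mri1, Apip, Enoph1, Adi1 and Got1 for salvage and Mat2a, Mat2b, Ahcy and Mtr for the cycle, which makes 10 of the 18204 genes listed. All 10 were above the limit on low expression and were tested.

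In methionine salvage, the methylthioadenosine left over from polyamine synthesis is cleaved by MTAP, and its sugar part is then rearranged, dehydrated and oxidised by MRI1, APIP, ENOPH1 and ADI1 until MTOB, the keto acid of methionine, is formed. A transaminase, of which cytosolic aspartate aminotransferase GOT1 is able to act on such keto acids, then returns MTOB to methionine. In the methionine cycle MAT2A, with its regulatory subunit MAT2B, makes the methyl donor S-adenosylmethionine, AHCY hydrolyses the S-adenosylhomocysteine left after methylation, and methionine synthase MTR remethylates homocysteine.

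The study asked how specific the CTBP inhibitors MTOB and 4-Cl-HIPP are, by giving them to cells with and without CTBP1 and CTBP2. The cells, J774.1, are a macrophage line of mouse origin. The 6 groups of 3 replicates were wildtype cells with vehicle, wildtype cells with MTOB at 1.5 mM, wildtype cells with 4-Cl-HIPP at 0.25 mM, and Ctbp1/2 dKO cells with the same vehicle and the same doses, and the inhibitors acted for 4 h. MTOB was dissolved in PBS and 4-Cl-HIPP in DMSO, and a single vehicle group of PBS/DMSO served both in each genotype, so their effects within a genotype share control samples. Both genotypes were grown from single cells after CRISPR-Cas9 editing, so a genotype difference and a difference between clonal lines cannot be told apart. The replicates are called biological without naming separate passages, and p-values here measure the spread between these samples. The kit was unstranded, so reads of overlapping genes on opposite strands cannot be told apart. The labels name polyA RNA, whereas the methods also mention removal of rRNA.

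Values are TPM, the share of transcripts a gene takes in a sample after correction for transcript length, which can be compared between genes. They sum to between 999766 and 999897 per sample over the listed genes, so the depth of each sample is unknown. The mean normalized counts over samples, which the table also gives, sum to 6704740. Tests were made with limma on log2(TPM + 1) for 16383 genes, and a gene passed at a Benjamini-Hochberg-adjusted p below 0.05. The pseudocount of 1 shrinks the log2 fold changes of genes with few TPM. In bulk RNA, fewer cells that express a gene and less of its RNA per cell cannot be told apart.

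The labels were first compared with the targeted genes and with cell type markers. Ctbp1 had 204, 212 and 238 TPM in wildtype cells with vehicle and 24.4, 25.2 and 25.6 TPM in dKO cells with vehicle. Its log2 fold change between dKO and wildtype was -3.07 under vehicle, -2.90 under MTOB and -3.13 under 4-Cl-HIPP, and the highest adjusted p of the 3 was 2.89e-10 (limma, Benjamini-Hochberg). Ctbp2 had 87.8, 93.2 and 96.9 TPM in wildtype and 73.5, 74.9 and 79.4 TPM in dKO cells with vehicle, a log2 fold change of -0.28 (adjusted p = 0.00427, limma, Benjamini-Hochberg). With vehicle the RNA of both genes was thus lower in every dKO sample than in every wildtype sample, and the difference was small for Ctbp2. These RNA levels do not measure protein, and the paper reports that a western blot showed loss of both CTBP1 and CTBP2 protein.

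All 9 macrophage markers examined (Adgre1, Cd68, Csf1r, Itgam, Lyz2, Spi1, Ptprc, Fcgr3 and Cd14) were listed, and they summed to 2361 to 3449 TPM per sample. Csf1r, the receptor of macrophage colony-stimulating factor, had the highest mean over the 18 samples, 840 TPM, and ranged from 612 to 942 TPM. Cd14 was above it in the 3 wildtype samples with MTOB and Cd68 in 1 dKO sample with MTOB, whereas Fcgr3 had 3.04 TPM in wildtype cells with vehicle. Of 11 markers of fibroblasts, T cells, B cells, epithelium, erythroid cells and neutrophils, 5 were in the table analysed. These summed to 0 to 2.43 TPM per sample, and the most abundant, Cd3d, had 0 to 2.07 TPM. The summed level of the macrophage markers differed between groups. In wildtype cells their sum was 2745 to 2829 TPM with vehicle and 3282 to 3449 TPM with MTOB. Of the 9 markers, 4 rose (Adgre1, Cd14, Lyz2 and Cd68) and 1 fell (Fcgr3) with MTOB in wildtype cells, and 3 rose in dKO cells (Cd14, Spi1 and Lyz2). Of all genes, 7.26% and 6.58% passed with MTOB in wildtype and dKO cells in either direction. The log2 fold change with MTOB in wildtype was 1.79 for Adgre1, from 29.1 to 102 TPM, and 0.86 for Cd14, and in dKO cells it was 1.18 for Cd14. The calls of Cd68 and Fcgr3 were each lost in 4 of 6 fits that left out a sample, with an adjusted p of up to 0.110 and 0.132 (limma, Benjamini-Hochberg). For the compared groups only, the calls of Cd68 and Fcgr3 were lost too, and so was that of Spi1 (adjusted p = 0.115, limma, Benjamini-Hochberg). Cd68 also lost its call without a variance trend, and Fcgr3 with a pseudocount of 0.1. With 4-Cl-HIPP, Cd14 fell in dKO cells by a log2 fold change of -0.46, a call lost for the compared groups only (adjusted p = 0.294, limma, Benjamini-Hochberg). Between genotypes under vehicle, Cd14 with 143 against 458 TPM and Adgre1 with 8.93 against 29.1 TPM were lower in dKO cells, and Itgam with 47.9 against 15.8 TPM and Cd68 with 643 against 554 TPM were higher. Under MTOB 5 of the 9 markers differed, with a log2 fold change between dKO and wildtype of -2.92 for Adgre1, -1.36 for Cd14, -0.23 for Lyz2, 1.49 for Itgam and 0.14 for Cd68, the last a call lost in 4 of 6 fits that left out a sample, with an adjusted p of up to 0.107 (limma, Benjamini-Hochberg). Under 4-Cl-HIPP 3 of 9 were higher (Itgam, Ptprc and Cd68) and 3 lower (Cd14, Adgre1 and Lyz2) in dKO cells. Of all genes, 11.2% passed between genotypes under MTOB and 10.2% under 4-Cl-HIPP. In 13 other settings, 6 of which left out a sample, the calls of Cd68, Ptprc and Lyz2 under 4-Cl-HIPP were lost in 6, 6 and 8. Their adjusted p reached 0.0952, 0.138 and 0.188 (limma, Benjamini-Hochberg). The call of Cd68 under MTOB was lost in 6 of 13 settings as well. The part of these shifts in the values of the methionine enzymes was not tested.

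Over the 18 samples Mat2a was the most abundant of the 10 genes, with a mean of 305 TPM, and Got1 followed with 85.9 TPM. Mtap with 70.9 TPM and Adi1 with 69.6 TPM followed, and their order differed between groups. Mtap was the higher of the pair in 9 of 18 samples, among them 3 of 3 wildtype samples with MTOB (means of 73.8 and 61.8 TPM), whereas it was so in 0 of 3 dKO samples with vehicle (70.0 and 73.4 TPM). Enoph1 with 53.9 TPM was below Adi1 in 18 of 18 samples and above Mat2b, with 44.0 TPM, in 17 of 18. Mat2b in turn was above Mri1 in 17 of 18 samples. The next genes lay close together, Mri1 with 28.9, Mtr with 25.1 and Apip with 24.0 TPM, and Mri1 was above Mtr in 12 samples and Mtr above Apip in 11. Ahcy was listed lowest with 9.83 TPM, below Apip in 18 of 18 samples, but a near-identical gene was listed far higher, as given with Ahcy.

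The genes differed widely in how tightly their replicates agreed. The SD of log2(TPM + 1) within groups was 0.04 for Mat2a and Got1, 0.05 for Mtap, and 0.06 and 0.07 for Adi1 and Enoph1. It was 0.27 for Mri1 and 0.71 for Ahcy, against a median of 0.14 over the 11044 tested genes whose mean normalized count was 10 or more. The highest sample was 1.12 times the lowest for Mtap and 5.37 times the lowest for Ahcy. Small differences could thus be detected for Mat2a, Got1 and Mtap, and only large ones for Mri1 and Ahcy.

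**Figure D1:**
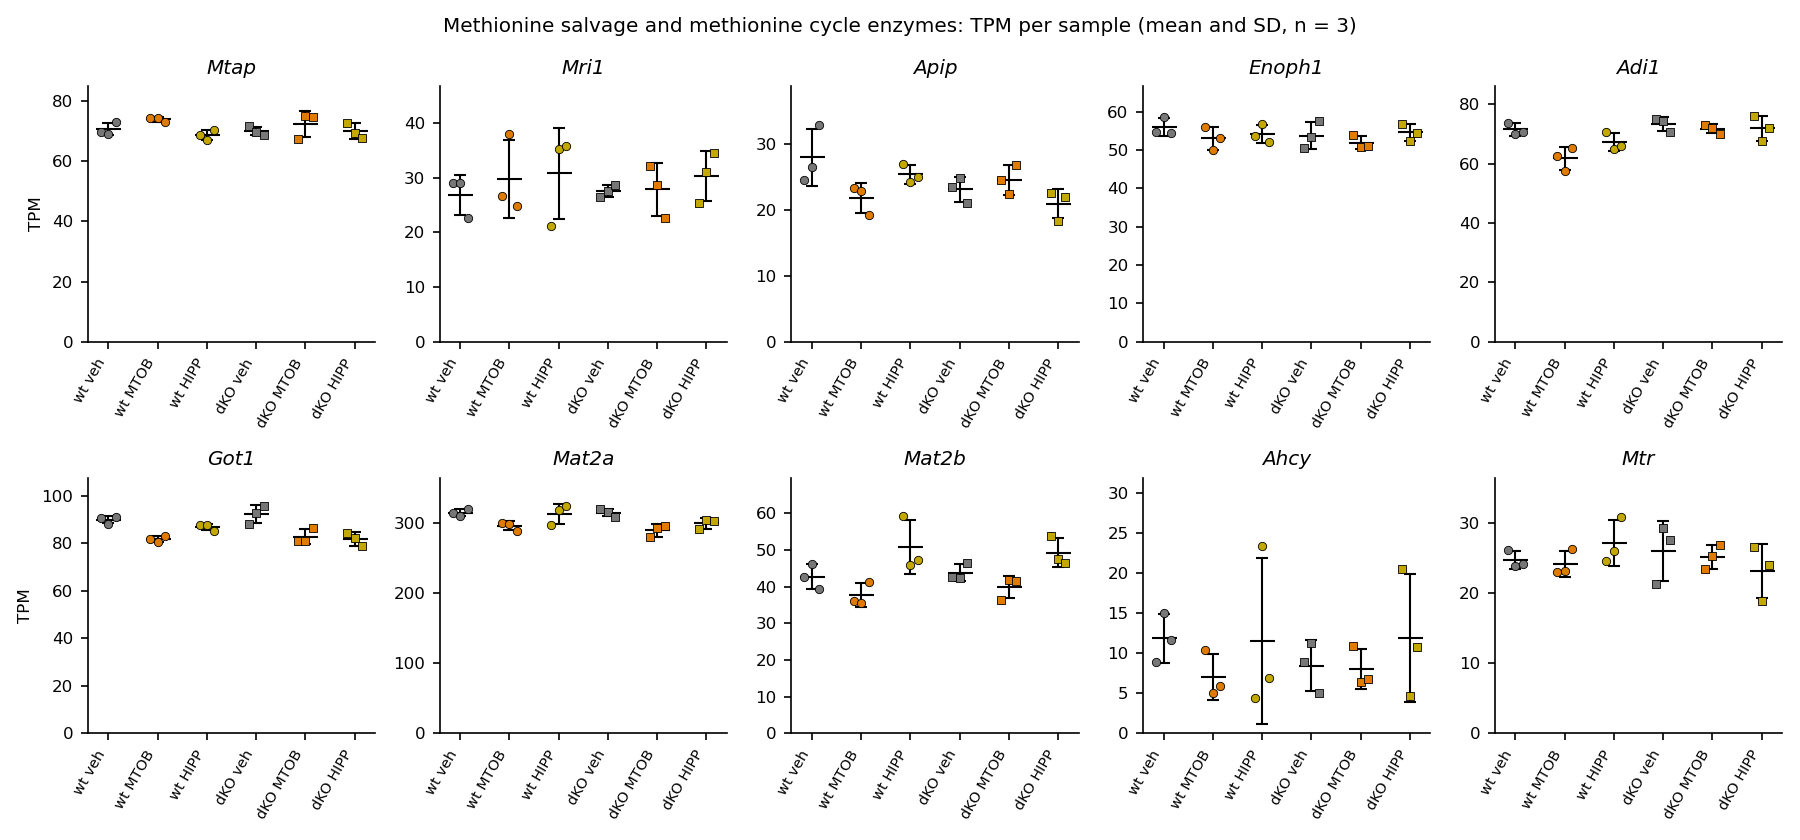
TPM of the 10 enzymes in each of 18 samples (points) with the group mean and SD (bars, n = 3) for wildtype (wt) and dKO cells under vehicle (veh), MTOB and 4-Cl-HIPP (HIPP). Each vertical axis starts at 0 and is linear; the range of group means of log2(TPM + 1) is widest for Ahcy (0.70), Mat2b (0.42) and Apip (0.39), and the replicates of Ahcy spread from 4.36 to 23.4 TPM with 4-Cl-HIPP in wildtype cells.

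Taking MTOB in wildtype cells first, 1 of 10 enzymes passed the test, Adi1, which fell, while 7.26% of all genes tested passed in either direction and 3.46% fell. Replicate values with and without MTOB did not overlap for 4 of the 10 (Apip, Adi1, Got1 and Mat2a, all lower with MTOB), against 22.6% of all genes. The median log2 fold change was -0.11 over the 10 and -0.01 over all genes, and 2 of 10 values were positive. In dKO cells, whose samples are separate from the wildtype ones, 1 of 10 passed with MTOB, Got1, which fell, against 6.58% of all genes in either direction and 3.54% lower. Here 3 of 10 did not overlap (Got1, Mat2a and Mat2b, all lower), against 21% of all genes, and the median log2 fold change was -0.04 against -0.01. With MTOB 4 of 10 had an unadjusted p below 0.05 (limma) in wildtype (Apip, Adi1, Got1 and Mat2a, all lower), against 18.4% of all genes, and 2 of 10 in dKO cells (Got1 and Mat2a, both lower), against 19%. The share past the adjusted test was near that of all genes in both genotypes.

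With 4-Cl-HIPP, 0 of 10 passed in wildtype cells, where 0.366% of all genes passed, and 1 of 10 had an unadjusted p below 0.05 (limma), Mat2b, against 8.19% of all genes. In dKO cells 0 of 10 passed, against 0.501% of all genes, and 1 had an unadjusted p below 0.05 (limma), Got1, against 8.47%. The median log2 fold changes were -0.04 and -0.02. Groups did not overlap for Got1 in wildtype, 1 of 10 against 12.6% of all genes, and for Got1, Mat2a and Mat2b in dKO cells, 3 of 10 against 13.7%. As MTOB was given at 1.5 mM and 4-Cl-HIPP at 0.25 mM, their effects stand side by side here and were not tested against each other.

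The comparison of genotypes asks how these enzymes differ in cells without CTBPs. Under vehicle 0 of 10 differed between dKO and wildtype, against 10.7% of all genes, with 0 of 10 at an unadjusted p below 0.05 (limma), against 21.4%, and 0 of 10 without overlap, against 26.1%. Under MTOB 1 of 10 passed, Adi1, which was higher in dKO, against 11.2% of all genes in either direction and 6.98% higher. It was also the 1 gene of 10 without overlap, against 23.5%, and the 1 of 10 with an unadjusted p below 0.05 (limma), against 22.4%. Under 4-Cl-HIPP 0 of 10 passed, against 10.2% of all genes, and 1 of 10 had an unadjusted p below 0.05 (limma), Apip, against 21.1%. Here 2 of 10 did not overlap, Apip and Got1, both lower in dKO, against 25.2%.

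The difference of the MTOB effect between genotypes passed for 0 of 10 enzymes and for 0.0916% of all genes, and 2 of the 10, Apip and Adi1, had an unadjusted p below 0.05 (limma), against 6.89% of all genes. For 4-Cl-HIPP it passed for 0 of 10 and for 0% of all genes, with 0 of 10 and 734 of 16383 genes (4.48%) at an unadjusted p below 0.05 (limma). In each of the 9 comparisons 0 of 10 enzymes passed both the test and a fold of 1.5. Of all genes, 2.01% and 1.63% did so with MTOB in wildtype and dKO cells, 0.14% and 0.153% with 4-Cl-HIPP, 4.83%, 4.95% and 4.72% between genotypes under vehicle, MTOB and 4-Cl-HIPP, and 0.0427% and 0% for the differences of the MTOB and 4-Cl-HIPP effects. The 95% confidence interval lay within a fold of 1.5 in either direction for 8 of 10 genes with MTOB and with 4-Cl-HIPP in wildtype, for 9 of 10 with each inhibitor in dKO cells, for 9 of 10 in each of the 3 genotype comparisons, and for 7 of 10 for each of the 2 differences of inhibitor effects.

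**Figure D2:**
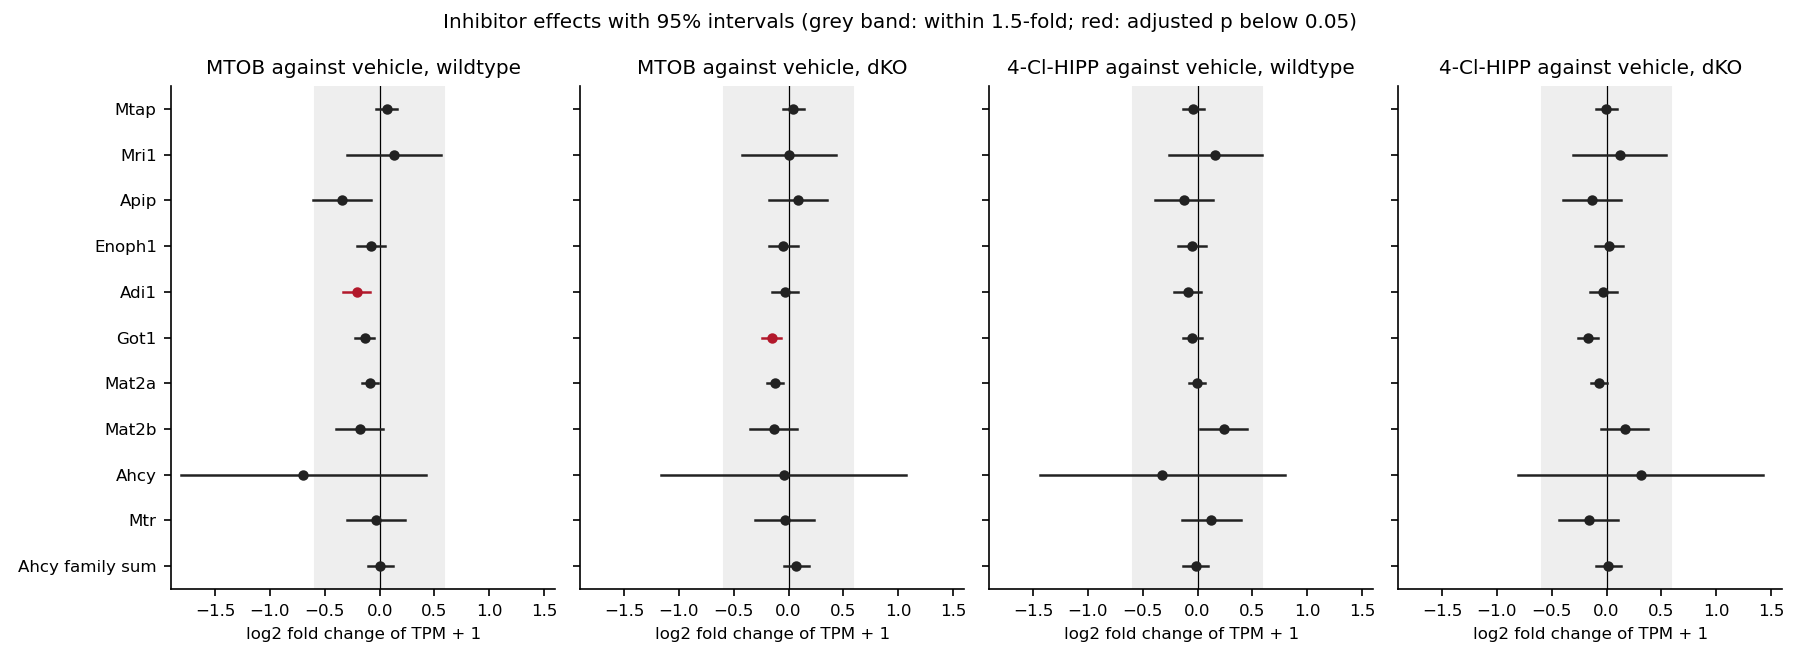
Log2 fold change of each enzyme against vehicle (points) with its 95% confidence interval (lines) for MTOB and 4-Cl-HIPP in wildtype and dKO cells. The intervals of Mat2a, Got1 and Mtap are narrow and close to 0, and that of Ahcy runs from -1.82 to 0.42 for MTOB in wildtype.

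Adi1 encodes acireductone dioxygenase, the enzyme that forms MTOB. In wildtype cells its 3 replicates had 73.9, 69.9 and 70.8 TPM with vehicle, 62.7, 57.6 and 65.3 TPM with MTOB, and 70.8, 65.1 and 65.9 TPM with 4-Cl-HIPP. In dKO cells they had 75.0, 74.5 and 70.8 TPM with vehicle, 73.2, 72.1 and 70.1 TPM with MTOB, and 76.0, 67.6 and 72.2 TPM with 4-Cl-HIPP. All wildtype samples with MTOB were below all with vehicle, whereas the dKO groups overlapped. With MTOB the mean fell from 71.5 ± 2.08 to 61.8 ± 3.93 TPM (SD, n = 3) in wildtype, a log2 fold change of -0.21 (95% interval -0.33 to -0.09, adjusted p = 0.0389, limma, Benjamini-Hochberg). In dKO cells the log2 fold change with MTOB was -0.03 (-0.15 to 0.09, adjusted p = 0.840, limma, Benjamini-Hochberg). The difference of these effects, wildtype minus dKO, was -0.18 (-0.35 to -0.00) and did not pass (adjusted p = 0.723, limma, Benjamini-Hochberg).

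Between genotypes under MTOB, Adi1 was higher in dKO by a log2 fold change of 0.21 (0.09 to 0.34, adjusted p = 0.0240, limma, Benjamini-Hochberg), in 3 of 3 samples. The MTOB call in wildtype was lost in 8 of 13 other settings, with an adjusted p (limma, Benjamini-Hochberg) of 0.0648 after median-of-ratios scaling, 0.0608 without a variance trend and 0.132 in a fit of the compared groups only. Leaving out a sample, this adjusted p (limma, Benjamini-Hochberg) was 0.0776 without MTOB replicate 1, 0.171 without MTOB replicate 2, and 0.132, 0.0674 and 0.0833 without vehicle replicate 1, 2 and 3. The genotype call was lost in 4 of 13 settings, with an adjusted p of 0.113 for the compared groups only, 0.118 without wildtype MTOB replicate 2, and 0.0682 and 0.0637 without dKO MTOB replicate 1 and 2 (limma, Benjamini-Hochberg).

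Got1 encodes the cytosolic aspartate aminotransferase, which also serves the malate-aspartate shuttle. In wildtype cells its replicates had 90.5, 88.3 and 91.1 TPM with vehicle, 81.8, 80.4 and 83.0 TPM with MTOB, and 87.7, 87.8 and 85.4 TPM with 4-Cl-HIPP. In dKO cells they had 88.3, 92.7 and 95.8 TPM with vehicle, 81.0, 80.9 and 86.4 TPM with MTOB, and 84.2, 82.4 and 78.8 TPM with 4-Cl-HIPP. Every sample with an inhibitor was thus below every vehicle sample of its genotype. In dKO cells Got1 fell with MTOB from 92.3 ± 3.80 to 82.8 ± 3.14 TPM (SD, n = 3), a log2 fold change of -0.15 (95% interval -0.24 to -0.07, adjusted p = 0.0362, limma, Benjamini-Hochberg). With MTOB in wildtype cells it was -0.14 (-0.23 to -0.05), with an adjusted p of 0.0616 that did not pass (limma, Benjamini-Hochberg).

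For 4-Cl-HIPP the log2 fold change of Got1 was -0.05 (-0.14 to 0.04) in wildtype and -0.17 (-0.26 to -0.08) in dKO cells, where the adjusted p of 0.0962 did not pass either (limma, Benjamini-Hochberg). The difference of the MTOB effects between genotypes was 0.02 (-0.11 to 0.14). The MTOB call in dKO cells was lost in 8 of 13 settings, with an adjusted p (limma, Benjamini-Hochberg) of 0.0887 after median-of-ratios scaling, 0.0844 without a variance trend and 0.206 for the compared groups only. With a sample left out, this adjusted p (limma, Benjamini-Hochberg) was 0.103 without MTOB replicate 1, 0.107 without MTOB replicate 2, 0.104 without vehicle replicate 2 and 0.152 without vehicle replicate 3.

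Mtap, whose product cleaves methylthioadenosine, had the narrowest range of the salvage genes over all samples, with 66.9 to 74.8 TPM. Its SD of log2(TPM + 1) within groups, 0.05, was above the 0.04 of Got1. Its replicates with MTOB were 74.3, 74.2 and 73.0 TPM in wildtype cells, where vehicle samples had 69.7, 69.1 and 73.0 TPM, and the groups overlapped. The log2 fold change was 0.06 (95% interval -0.03 to 0.16) with MTOB in wildtype and 0.04 (-0.06 to 0.14) in dKO cells, and it was between -0.04 and 0.03 in the 2 comparisons with 4-Cl-HIPP and the 3 between genotypes. Enoph1, the enolase-phosphatase of the pathway, had 50.1 to 58.7 TPM, and its intervals for the inhibitors reached from -0.21 to 0.15. Part of its transcript, shorter than the 500 bases used here to define a copy, is shared with its neighbour Hnrnpdl.

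Apip, the dehydratase, had 24.6, 26.6 and 33.0 TPM with vehicle and 23.3, 23.0 and 19.2 TPM with MTOB in wildtype cells, without overlap. The log2 fold change was -0.34 (95% interval -0.60 to -0.08), and the adjusted p of 0.130 did not pass (limma, Benjamini-Hochberg). In dKO cells it had 23.5, 24.8 and 21.1 TPM with vehicle and 24.5, 22.4 and 26.9 TPM with MTOB, a log2 fold change of 0.08 (-0.18 to 0.35). The difference of these effects was -0.42 (-0.80 to -0.05), with an adjusted p of 0.680 (limma, Benjamini-Hochberg), and the dKO groups overlapped. Without vehicle replicate 3 of wildtype, the sample with 33.0 TPM, the effect in wildtype was -0.22 and the difference -0.31. Mri1, the isomerase, ranged from 21.2 to 38.0 TPM, and both ends of this range lay in inhibitor-treated wildtype samples. Its replicates spread too far for small effects, as the interval of the MTOB effect in wildtype, -0.30 to 0.56, shows.

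Mat2a encodes the catalytic subunit that makes S-adenosylmethionine in cells other than liver. In wildtype cells its replicates had 315, 311 and 320 TPM with vehicle, 300.3, 299.7 and 288.8 TPM with MTOB, and 298, 319 and 324 TPM with 4-Cl-HIPP. In dKO cells they had 320, 317 and 309 TPM with vehicle, 279.9, 293.1 and 296.4 TPM with MTOB, and 291, 305 and 304 TPM with 4-Cl-HIPP. In both genotypes every sample with MTOB was below every vehicle sample. The log2 fold change with MTOB was -0.09 (95% interval -0.16 to -0.02, adjusted p = 0.163) in wildtype and -0.12 (-0.20 to -0.05, adjusted p = 0.0510) in dKO cells, and neither passed (limma, Benjamini-Hochberg). With genes of a mean normalized count under 10 left out, the value in dKO cells passed at an adjusted p of 0.0435 (limma, Benjamini-Hochberg), within a range of 0.0435 to 0.182 over all settings. With 4-Cl-HIPP the log2 fold change was -0.01 (-0.08 to 0.07) and -0.07 (-0.14 to 0.00). Between genotypes under vehicle it was 0.00 (-0.07 to 0.07).

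The Mat2a transcript is known for hairpins in its 3′ UTR that the methyltransferase METTL16 binds and that tie its RNA level to S-adenosylmethionine. The nonamers TACAGAGAA and TACAGAAAA were searched on the transcript strand of the 1497-base 3′ UTR and found 6 times, which is why these sequences are shown. They lie in the last exon of Mat2a (ENSMUSG00000053907) on the minus strand of GRCm39, with 10 bases on each side and the nonamer in capitals. Sites 1 to 4 are at chr6:72411218-72411246, chr6:72410434-72410462, chr6:72410255-72410283 and chr6:72410140-72410168. Sites 5 and 6 are at chr6:72410029-72410057 and chr6:72409921-72409949.
site 1: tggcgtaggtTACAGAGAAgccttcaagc
site 2: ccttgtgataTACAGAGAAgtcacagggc
site 3: ctggtgtagcTACAGAGAAaccagcttcc
site 4: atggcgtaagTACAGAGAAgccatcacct
site 5: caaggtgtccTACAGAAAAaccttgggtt
site 6: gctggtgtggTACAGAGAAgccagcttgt
Of 8287 annotated 3′ UTRs at least as long, read over their first 1497 bases, 373 (4.5%) held either nonamer, and 1, that of Mat2a, held 6 or more. The nonamers were picked for the known hairpins of Mat2a, so its own count follows from that choice. A match is a stretch of letters and shows no binding in these cells. Mettl16 itself had 38.6 to 58.3 TPM, and its log2 fold change was 0.20 (95% interval -0.04 to 0.44) with MTOB in wildtype and 0.15 (-0.09 to 0.38) in dKO cells, without passing the test. On the opposite strand, transcripts of Ggcx (9.81 TPM) share 788 bases with Mat2a, and their reads cannot be separated from it in an unstranded library.

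Mat2b, the regulatory subunit, did not pass the test with either inhibitor. Its wildtype replicates had 42.7, 46.2 and 39.4 TPM with vehicle, 36.0, 35.5 and 41.4 TPM with MTOB, and 59.4, 45.9 and 47.2 TPM with 4-Cl-HIPP. In dKO cells the values were 42.7, 42.3 and 46.4 TPM with vehicle, 36.3, 41.7 and 41.5 TPM with MTOB, and 53.9, 47.5 and 46.6 TPM with 4-Cl-HIPP. The wildtype groups overlapped with vehicle and the dKO groups did not. With MTOB the log2 fold change was -0.18 (95% interval -0.39 to 0.03) in wildtype and -0.14 (-0.35 to 0.08) in dKO cells. With 4-Cl-HIPP it was 0.24 (0.02 to 0.45, adjusted p = 0.546) and 0.17 (-0.05 to 0.38, adjusted p = 0.722) (limma, Benjamini-Hochberg). Single samples weighed on these values. Without 4-Cl-HIPP replicate 1, the highest of its group in each genotype, the log2 fold change was 0.12 in wildtype and 0.10 in dKO cells, and without MTOB replicate 1 that with MTOB in dKO cells was -0.07.

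Ahcy, the hydrolase of S-adenosylhomocysteine, had the widest spread. Its wildtype replicates had 8.88, 15.0 and 11.7 TPM with vehicle, 10.4, 5.01 and 5.89 TPM with MTOB, and 4.36, 23.4 and 6.87 TPM with 4-Cl-HIPP. The dKO values were 8.95, 11.3 and 5.08 TPM with vehicle, 10.9, 6.38 and 6.75 TPM with MTOB, and 20.5, 4.65 and 10.8 TPM with 4-Cl-HIPP. Every pair of groups compared overlapped, and single samples such as 4-Cl-HIPP replicate 2 in wildtype stood far above the others of their group. The log2 fold change with MTOB was -0.70 in wildtype (95% interval -1.82 to 0.42) and -0.04 in dKO cells (-1.16 to 1.07), so these intervals include a fall by a fold of 1.5 in both genotypes and a rise by that fold in dKO cells. With 1 sample left out, these log2 fold changes ranged from -0.97 to -0.51 and from -0.33 to 0.18.

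A near-identical gene was listed with more TPM than Ahcy. Ahcy (ENSMUSG00000027597) lies at chr2:154901230-154916422 on the minus strand of GRCm39, and Gm4737, named Ahcyl in the Gencode M39 annotation, is an intronless protein-coding gene at chr16:45973348-45975440, also on the minus strand. Over 2083 aligned bases the transcripts are 99.71% identical, with 6 substitutions and an identical run of 575 bases. Gm4737 had a mean of 177 TPM and the processed pseudogene Gm9826 1.21 TPM, against 9.83 TPM for Ahcy. Ahcy thus held 2.47% to 11.5% of the summed TPM of the 3 genes, with a median of 4.88%.

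The 60-base stretch with the most differences is shown because its bases tell the genes apart there. It is coding in both, spans 2 exons of Ahcy from exon 4 on (chr2:154906818-154907487 with the intron) and lies at chr16:45974902-45974961 in Gm4737. Capitals mark the differences, C569T and G584A, with the Ahcy base first and positions counted from base 1 of the Ahcy transcript.
Ahcy: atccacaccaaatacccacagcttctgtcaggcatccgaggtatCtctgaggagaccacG
Gm4737: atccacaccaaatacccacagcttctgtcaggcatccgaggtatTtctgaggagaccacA
Summed over the 3 genes, the level was 190.4, 191.3 and 191.9 TPM with vehicle, 199, 185 and 191 TPM with MTOB, and 177, 203 and 188 TPM with 4-Cl-HIPP in wildtype cells. In dKO cells it was 176, 187 and 184 TPM with vehicle, 187, 191 and 195 TPM with MTOB, and 199.7, 173.0 and 180.7 TPM with 4-Cl-HIPP. Most of this sum is Gm4737, which alone had 167 to 188 TPM over the 18 samples, so the sum does not show how steady Ahcy was. Its log2 fold changes, a calculation chosen after the values were seen, were 0.00 (95% interval -0.11 to 0.12) and 0.07 (-0.04 to 0.19) with MTOB in wildtype and dKO cells, and -0.02 (-0.13 to 0.10) and 0.02 (-0.10 to 0.13) with 4-Cl-HIPP. All of these intervals lay within a fold of 1.5.

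**Figure D3:**
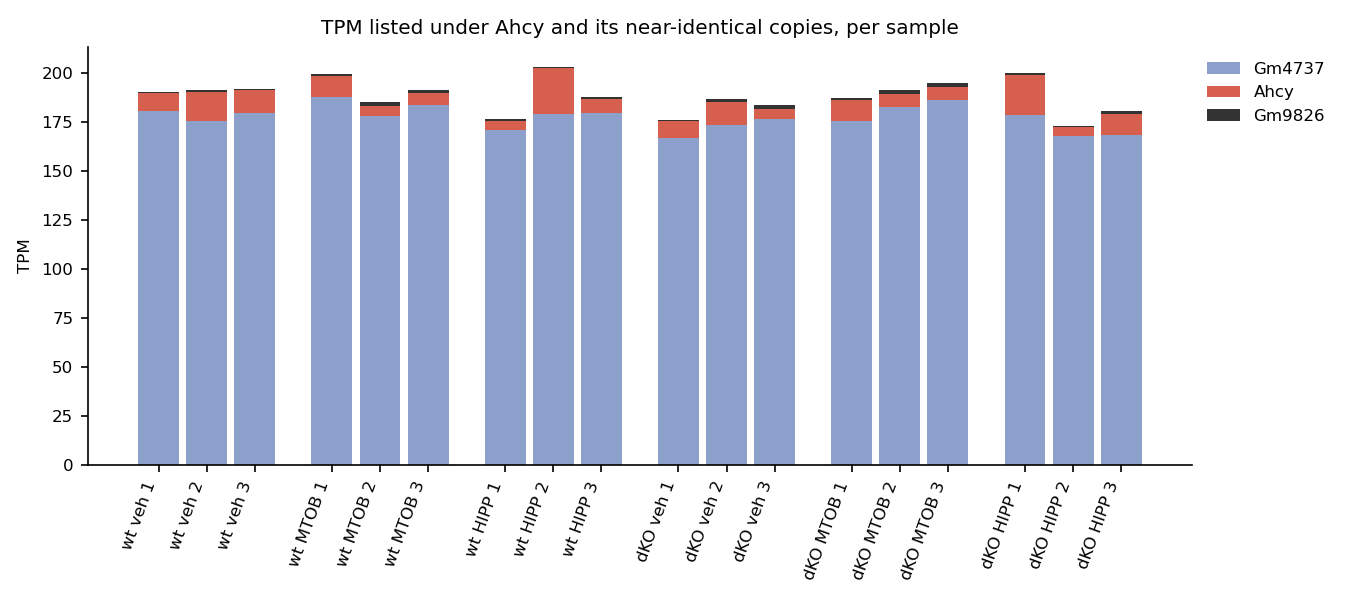
TPM of Ahcy, of its near-identical copy Gm4737 and of Gm9826, stacked in a bar for each sample. The height of a bar is their sum in that sample. Ahcy lies between 4.36 and 23.4 TPM, Gm4737 between 167 and 188 TPM, and the sum, of which Gm4737 makes up most, between 173 and 203 TPM.

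Mtr, the cobalamin-dependent methionine synthase, had 18.9 to 30.9 TPM, and both ends of the range lay in samples with 4-Cl-HIPP. Its log2 fold change was -0.03 (95% interval -0.30 to 0.24) and -0.04 (-0.30 to 0.23) with MTOB in wildtype and dKO cells, and 0.12 (-0.14 to 0.39) and -0.16 (-0.43 to 0.10) with 4-Cl-HIPP. The difference of the 4-Cl-HIPP effects between genotypes, 0.29 (-0.09 to 0.67), did not pass. With 1 sample left out, the log2 fold change with 4-Cl-HIPP ranged from 0.03 to 0.19 in wildtype and from -0.30 to -0.03 in dKO cells, and the difference from 0.15 to 0.42. The log2 fold change with MTOB then ranged from -0.09 to 0.01 in wildtype and from -0.17 to 0.05 in dKO cells.

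Across the 18 samples, the genes with a pattern most like Mtap, among 11043 candidates, were Btaf1 (Pearson r of log2(TPM + 1) 0.907), Slc36a4 (0.839), Uck2 (0.821), Gramd1b (0.819) and Tnrc6a (0.816). For Ahcy, whose group means ranged most, they were Fbxl17 (0.759), Iah1 (0.688), 9330151L19Rik (0.671), Zc3h15 (0.654) and Mterf1a (0.654). The range of the group means of Ahcy, 0.70, was no wider than its SD within groups, 0.71, both in log2(TPM + 1). The samples share groups and libraries, and these values describe them only.

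Genes around the pathway were taken from 8 lists with 53 genes, of which 46 were tested. With MTOB, 5 rose and 3 fell in wildtype and 8 rose and 1 fell in dKO cells, with a median log2 fold change of 0.02 and 0.01. All genes passed at 7.26% and 6.58% in these comparisons. With 4-Cl-HIPP, where 0.366% and 0.501% of all genes passed in wildtype and dKO cells, 0 of 46 passed in wildtype, where 9 of 46 had an unadjusted p below 0.05 (limma), against 8.19% of all genes, and 1 of 46 fell in dKO cells, where 8 of 46 had such a p, against 8.47%. Over all 13 settings, 3 of the 8 calls with MTOB in wildtype and 2 of the 9 in dKO cells held. Between dKO and wildtype 5 were higher and 4 lower under vehicle, 6 higher and 5 lower under MTOB, and 4 higher and 5 lower under 4-Cl-HIPP, against 10.7%, 11.2% and 10.2% of all genes in either direction. Of these, 4 of 9, 5 of 11 and 4 of 9 calls held in all 13 settings.

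Among enzymes that handle keto acids, Bckdha, the subunit of the branched-chain keto acid dehydrogenase that decarboxylates its substrates, fell with MTOB in both genotypes. It had 19.1, 18.2 and 18.4 TPM with vehicle and 13.9, 12.1 and 12.8 TPM with MTOB in wildtype, and 21.6, 22.5 and 20.3 TPM against 14.4, 13.0 and 15.1 TPM in dKO cells. The groups did not overlap, and the log2 fold changes were -0.49 (95% interval -0.66 to -0.32, adjusted p = 0.00110) and -0.57 (-0.74 to -0.39, adjusted p = 0.000409) (limma, Benjamini-Hochberg). Of the 7 genes of this list, 1 fell in wildtype, and 1 rose and 1 fell in dKO cells, the other being Dbt, the transacylase subunit, with 0.37 (adjusted p = 0.0439, limma, Benjamini-Hochberg, lost in 8 of 13 settings, of which 5 left out a sample, with up to 0.164). Among 6 tested transaminases and amino acid oxidases, Bcat1, the cytosolic branched-chain aminotransferase, rose with MTOB by 0.24 in both genotypes (adjusted p = 0.000416 and 0.000430, limma, Benjamini-Hochberg). Mitochondrial Bcat2 fell by 0.27 in wildtype (adjusted p = 0.0364, limma, Benjamini-Hochberg, lost in 8 of 13 settings, of which 4 left out a sample, with up to 0.163). In dKO cells Bcat1 fell by 0.17 with 4-Cl-HIPP (adjusted p = 0.0423, limma, Benjamini-Hochberg, lost in 10 of 13 settings, among them each of the 6 that left out a sample, with up to 0.171).

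Of the methionine transport genes, 7 of 8 were tested. Slc7a5 and Slc3a2, which together form the LAT1 transporter, rose with MTOB in both genotypes, Slc7a5 by 0.17 and 0.14 and Slc3a2 by 0.26 and 0.39 in wildtype and dKO cells (highest adjusted p = 0.0212, limma, Benjamini-Hochberg). The call of Slc7a5 in dKO cells was lost in 4 of 6 fits that left out a sample, with an adjusted p of up to 0.0846, and that of Slc3a2 in wildtype without MTOB replicate 3 (0.0745) or vehicle replicate 3 (0.0672) (limma, Benjamini-Hochberg). Without a variance trend the adjusted p of Slc7a5 was 0.0503 in wildtype and 0.102 in dKO cells, and for the compared groups only that of Slc7a5 and Slc3a2 in dKO cells was 0.0773 and 0.0745 (limma, Benjamini-Hochberg). In wildtype cells the glutamine carrier Slc1a5 also rose by 0.26 and the LAT4 gene Slc43a2 fell by 0.52 (adjusted p = 0.00839 and 0.0114, limma, Benjamini-Hochberg). Without MTOB replicate 3 or vehicle replicate 3 the adjusted p of Slc43a2 was 0.0596 or 0.0516, and for the compared groups only it was 0.149, and 0.116 for Slc1a5 (limma, Benjamini-Hochberg). Of 2 transsulfuration genes Cth rose in dKO cells by 0.76 from 1.06 to 2.48 TPM (adjusted p = 0.0212, limma, Benjamini-Hochberg), a call lost in 3 of 6 fits that left out a sample, with up to 0.0800, with a pseudocount of 0.1 (0.0611) and for the compared groups only (0.0753). None of the 7 folate and cobalamin genes and none of the 7 tested genes of S-adenosylmethionine sensing, transport and methylation passed with either inhibitor (limma, Benjamini-Hochberg). An unadjusted p below 0.05 (limma) was found for 1 of 7 folate and cobalamin genes with MTOB in wildtype, against 18.4% of all genes. In the S-adenosylmethionine list it was found for 1 of 7 with 4-Cl-HIPP in wildtype, against 8.19%. The other inhibitor comparisons of each list had 0 of 7.

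Polyamine synthesis, which supplies methylthioadenosine, has 4 genes here, and Odc1, its first enzyme, rose with MTOB by a log2 fold change of 0.58 in wildtype and 0.22 in dKO cells (adjusted p = 3.67e-08 and 0.00130, limma, Benjamini-Hochberg). For the compared groups only, the call of Odc1 in dKO cells was lost (adjusted p = 0.0684, limma, Benjamini-Hochberg). In dKO cells Amd1 rose by 0.15 and Sms by 0.25 (adjusted p = 0.0368 and 0.0233, limma, Benjamini-Hochberg), calls lost in 5 and 4 of 6 fits that left out a sample, with up to 0.145 and 0.0909, and for the compared groups only (0.160 and 0.0955). The call of Amd1 was also lost without a variance trend (adjusted p = 0.106) and with the replicate number as a block (0.0538) (limma, Benjamini-Hochberg). Reads of these genes can be shared with near-identical copies, such as Gm7993 (58.5 TPM) for Odc1, Amd2 (13.5 TPM) for Amd1 and Sms-ps (43.6 TPM) for Sms.

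**Figure D4:**
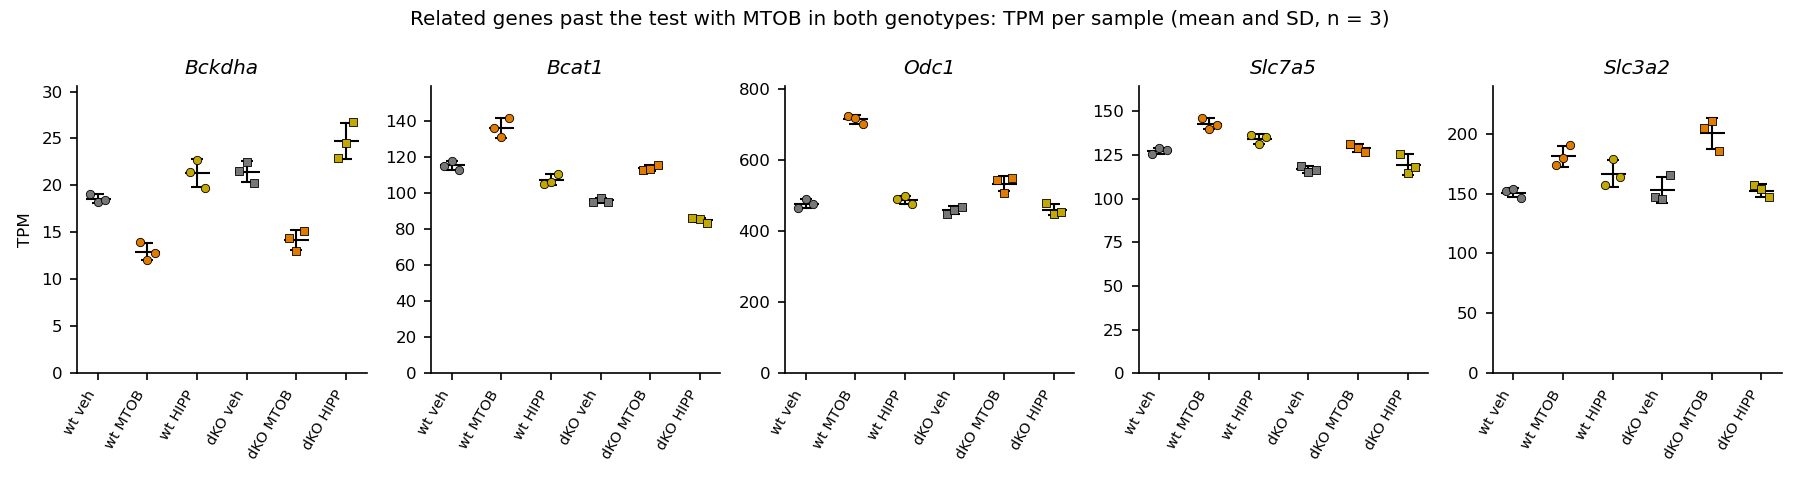
TPM of Bckdha, Bcat1, Odc1, Slc7a5 and Slc3a2, the genes around the pathway that passed the test with MTOB in both genotypes, in each sample (points) with the group mean and SD (bars, n = 3). With MTOB Bckdha lies below vehicle and the other genes lie above it in each genotype.

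Between genotypes, Ada, the adenosine deaminase that follows AHCY, was higher in dKO cells under all 3 treatments. Under vehicle it had 7.62, 4.87 and 6.62 TPM in wildtype and 17.8, 17.0 and 17.9 TPM in dKO cells, so all dKO samples were above all wildtype ones. The log2 fold change was 1.35 under vehicle (95% interval 1.05 to 1.65, adjusted p = 7.75e-06), 0.88 under MTOB (adjusted p = 0.000539) and 1.23 under 4-Cl-HIPP (adjusted p = 2.14e-05) (limma, Benjamini-Hochberg). It was the 1 gene of 6 tested other methionine cycle enzymes to pass, and Ahcyl1, the most abundant of them with 116 TPM, did not pass in any comparison. Got2, the mitochondrial counterpart of Got1, was higher in dKO by 0.33, 0.29 and 0.34 under vehicle, MTOB and 4-Cl-HIPP, with 262 to 273 TPM in wildtype and 328 to 342 TPM in dKO cells under vehicle. Bcat1 was lower in dKO by a log2 fold change of -0.26, -0.26 and -0.33, and Amd1 by -0.27, -0.21 and -0.25, in the same order. For Got2, Bcat1 and Amd1 the highest adjusted p of these 3 comparisons was 0.000168, 0.000113 and 0.00293 (limma, Benjamini-Hochberg). The call of Amd1 under MTOB was lost for the compared groups only (adjusted p = 0.0594, limma, Benjamini-Hochberg).

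Of the other genes around the pathway, Odc1 was lower in dKO cells under MTOB by a log2 fold change of -0.42 (95% interval -0.50 to -0.35, adjusted p = 6.09e-07, limma, Benjamini-Hochberg), a call that held in all 13 settings, and it did not pass between genotypes under vehicle or 4-Cl-HIPP. Slc43a2 was higher in dKO cells under all 3 treatments, by 0.51, 0.98 and 0.39 under vehicle, MTOB and 4-Cl-HIPP (adjusted p = 0.00826, 2.38e-05 and 0.0438, limma, Benjamini-Hochberg). The call under MTOB, with 38.5 against 18.9 TPM, held in all 13 settings, that under vehicle was lost in 1 and that under 4-Cl-HIPP in 8. Slc7a5 was lower in dKO by a log2 fold change of -0.12, -0.15 and -0.17, calls lost in 5, 2 and 1 of 13 settings. Bmt2, a sensor of S-adenosylmethionine, was lower under MTOB (-0.48, adjusted p = 0.00527, limma, Benjamini-Hochberg, lost in 1 of 13 settings).

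The remaining calls between genotypes were each lost in 5 to 9 of 13 settings. Higher in dKO were Abcd4, which serves cobalamin transport, under vehicle and MTOB (0.52 and 0.47), the amino acid carriers Slc38a1 under vehicle and 4-Cl-HIPP (0.18 and 0.18) and Slc38a2 under MTOB (0.16), and Bcat2 under MTOB (0.26). Lower in dKO were Dbt under vehicle and 4-Cl-HIPP (-0.35 and -0.35) and the spermidine synthase gene Srm under 4-Cl-HIPP (-0.12). With a sample left out the highest adjusted p of these calls was 0.184, for Dbt under 4-Cl-HIPP (limma, Benjamini-Hochberg).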

How the data were processed

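RNA of 18 J774.1 samples was measured, 3 per genotype and treatment, grouped by GEO's labels. Per the paper's methods, the authors quantified reads with Salmon 1.9.0 on Gencode M28 (GRCm39), imported gene-level estimates and used DESeq2 1.44.0. The authors deposited scaled TPM for each gene and sample, and a signal for each gene, which is its normalized count averaged over samples. They also deposited 8 columns of their own comparisons, which give a log2 fold change and an adjusted p-value per inhibitor and genotype and were not used.

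Here limma 3.58.1 (R 4.3.3, package data.table in version 1.17.8) fitted log2(TPM + 1) with 6 group means over all samples and let the variance follow the log2 of the mean normalized count. It tested the 16383 genes for which this count exceeded its 10th percentile (0.222), with Benjamini-Hochberg adjustment per comparison. Intervals are 95% intervals of moderated estimates. The procedure was tested on simulated data. Members and lists were chosen with earlier results of these data known. All members are named, and other list genes where they passed a test or were the most abundant of their list. Copies were found with blastn 2.17.0 in Gencode M39 transcripts (at least 95% identity over 500 bases). Sequences came from that annotation (Biopython 1.88, Python 3.11.15) and plots from matplotlib 3.10.9. The alternatives were another pseudocount, 2 other filters, median-of-ratios scaling, no trend, the compared groups only, a replicate term, leaving out each sample and, chosen after the data were seen, Ahcy summed with its copies.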

Additional observations from a re-analysis of the deposited data

Results flagged for a closer look

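The effect of MTOB on Odc1, which encodes the first enzyme of polyamine synthesis, differed between genotypes. Odc1 had 464, 489 and 477 TPM with vehicle and 722, 719 and 699 TPM with MTOB in wildtype cells, and 447, 460 and 468 TPM with vehicle and 542, 508 and 548 TPM with MTOB in dKO cells. All samples with MTOB were above those with vehicle in both genotypes, and the wildtype samples with MTOB were the highest. The log2 effect in wildtype minus that in dKO cells was 0.36 (95% interval 0.26 to 0.47, adjusted p = 0.00885, limma, Benjamini-Hochberg), and the adjusted p ranged from 0.00557 to 0.102 over 19 alternatives, with the call lost in 1 of them, the fit without a variance trend. Odc1 was the only gene of the 10 enzymes and the 46 related genes tested for which the difference between genotypes passed.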

How the results depend on the processing

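With median-of-ratios scaling, without a variance trend or with the compared groups only, the number of the 10 enzymes past the test with MTOB went from 1 to 0 in wildtype and from 1 to 0 in dKO cells. With genes under a mean normalized count of 10 left out it was 2 in dKO cells. Between genotypes under MTOB it went from 1 to 0 with the compared groups only. Leaving out single samples gave 0 to 1 for these 3 comparisons and 0 for the others.

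Of all genes, the compared groups only, which leave fewer samples to estimate the spread, gave 699 with MTOB in wildtype (from 1189), 305 in dKO cells (from 1078), 24 and 9 with 4-Cl-HIPP in wildtype and dKO cells (from 60 and 82), 995 between genotypes under MTOB (from 1829) and 2 for the difference of 4-Cl-HIPP effects (from 0). Without a trend, the difference of MTOB effects passed for 6 genes (from 15). Leaving out single samples gave 867 to 915 and 722 to 991 genes with MTOB, 19 to 44 and 36 to 80 with 4-Cl-HIPP (wildtype and dKO cells), 1377 to 1469, 1451 to 1753 and 1354 to 1429 between genotypes under vehicle, MTOB and 4-Cl-HIPP, and 7 to 20 and 0 to 3 for the differences of the MTOB and 4-Cl-HIPP effects. The causes were not tested.

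Deviations of same-numbered samples from their group means had an r of -0.133 to 0.0909 over 21 pairs. Such deviations from means of 3 samples do not tell whether same-numbered samples were handled together, which was not tested. With the replicate number as a block, 0 of the 10 enzymes passed with MTOB in dKO cells, and 8 genes passed for the difference of MTOB effects.

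Of 2319 values under all alternatives, for the enzymes in every comparison and for the targeted genes, macrophage markers and related genes where they passed the test, 208 lost the call, 1 gained it, 0 called values reversed and 81 uncalled values changed sign. Scaling moved the median of all genes by at most 0.014 (log2). The depth of each sample is unknown, and how reads shared by Ahcy and Gm4737 were placed was not tested.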
